A study of Mus musculus with 14 samples.

Results

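The genes described here are 10 members of the Hippo pathway: the adaptors Mob1a and Mob1b, the kinases Stk3, Stk4, Lats1 and Lats2, the scaffold Sav1, the transcriptional co-activators Yap1 and Wwtr1, and the angiomotin Amotl2. The set was chosen from the readout itself, because Mob1b had low values in cells carrying 1 of 2 hairpins against Cnot7. Each gene was represented by its probe set (the group of array probes that measures 1 transcript), the one with the highest mean where there were several, among probe sets that pair with exactly 1 gene symbol. Of the 10 genes, 9 had such a probe set, 1 each, out of 19938 genes measured. Stk3 was not analysed here.

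RNA of 4T1, a line of BALB/c mouse mammary tumor cells, was hybridized to mouse gene arrays in 14 samples, to ask how the level of the CCR4-NOT deadenylase Cnot7 affects the transcriptome. CNOT7 over-expression cells (n = 3) carried human FLAG-tagged CNOT7 driven by a murine Pol2 promoter in a lentivirus. They were set against vector control cells (n = 3), whose control vector held non-coding DNA. The paper's methods name different destination vectors for these constructs, and both groups were under blasticidin selection. Cells with the short hairpin RNAs sh74 (n = 2) or sh75 (n = 3), which both target Cnot7, were set against cells with a scrambled hairpin, shScramble (n = 3), all under puromycin selection. The design text speaks of 3 replicates for each hairpin, and 2 samples carry the sh74 label here. The sample titles hold a number of unstated meaning, and 2 of the 3 CNOT7 over-expression samples and 2 of the 3 sh75 samples share the number 5 within their group. Nothing said that replicates came from separate cultures or whether a line was 1 clone, so the p-values reflect the scatter among these samples alone, which may be technical.

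In the Hippo pathway the kinases Stk3 and Stk4 (MST2 and MST1), held by the scaffold Sav1, phosphorylate and activate the kinases Lats1 and Lats2 together with their Mob1 adaptors. Active Lats kinases phosphorylate Yap1 and Wwtr1 (also called TAZ), which are then kept in the cytoplasm or degraded. Unphosphorylated YAP and TAZ enter the nucleus and act with TEAD transcription factors on genes of growth, matrix and migration. Most of this control acts on proteins, whereas the arrays measured RNA.

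The hairpins are shown because the low Mob1b values went with 1 of them. Each is the antisense strand as the study designed it, 21 bases written 5′ to 3′, with the seed (bases 2 to 8) in capitals.
sh74: tAAGTACTgcagaatagaagg
sh75: aACAAGTCtacattacaccgc
The seeds differ, and aligned from the 5′ end the strands share the same base at 2 of 21 positions. Their G and C counts are 8 for sh74 and 9 for sh75. Cnot7 itself lies on mouse chromosome 8.

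The measured genes lie on chromosomes 2 (Stk4), 3 (Wwtr1), 5 (Mob1b), 6 (Mob1a), 9 (Yap1 and Amotl2), 10 (Lats1), 12 (Sav1) and 14 (Lats2). Promoters from 250 bases before to 50 after each gene's start (RefSeq, mouse GRCm38.p6) were searched on both strands for GGAATG, which is CATTCC on the opposite strand and is the core of the motif bound by TEAD factors. The motif stood in 6 of 9 genes found in the promoter table (66.7%), in 4 of 12 YAP and TAZ target genes (33.3%) and in 4481 of all 27025 genes (16.6%). The windows of 30 bases below show, with the motif in capitals and read along the gene's own strand, where it lies in the pathway's own genes.
Mob1a, chr6:83325818-83325847, plus strand: tggccagaatagCATTCCtttaggagaaga
Lats2, chr14:57746102-57746131, minus strand: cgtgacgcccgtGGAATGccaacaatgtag
Sav1, chr12:69987091-69987120, minus strand: cggctttcccagCATTCCcagcggcgcggg
Yap1, chr9:8004720-8004749, minus strand: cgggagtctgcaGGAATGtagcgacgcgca
Wwtr1, chr3:57576029-57576058, minus strand: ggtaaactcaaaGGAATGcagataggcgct
Amotl2, chr9:102717727-102717756, plus strand: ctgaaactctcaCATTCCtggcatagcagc
No match stood in the windows of Mob1b, Lats1 and Stk4. A match is a run of letters and not a binding site, and the members were not chosen for it.

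Values are log2 intensities from robust multi-array averaging (RMA). A probe set was called above background where it exceeded 4.89, the 90th percentile of 1035 probe sets of olfactory receptors, which mammary tumor cells should not express. All 9 genes were above that limit in 14 of 14 samples. Of the labelled cell type, 15 of 15 epithelial markers were above the limit in every sample, and the mean over that list was 8.82 to 10.31 in CNOT7 over-expression cells, 8.41 to 10.49 in sh74 cells, 8.76 to 10.35 in sh75 cells, 9.31 to 10.36 in vector control cells and 8.86 to 10.33 in shScramble cells. The epithelial level thus spread widely within every group. In every sample 7 of 10 mesenchymal, 4 of 7 fibroblast, 3 of 7 immune, 2 of 6 endothelial and 2 of 4 adipocyte markers were above the limit. Of the immune markers, Cd68 (6.77 to 9.01), Csf1r (5.61 to 7.44) and Cd3e (5.68 to 6.04) were above it throughout, and Ptprc (4.49 to 4.73), Itgam (4.46 to 4.78), Cd79a (3.52 to 3.98) and Adgre1 (4.47 to 4.89) were not. Their part in the results below was not tested.

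Endogenous Cnot7 measured 8.71 and 9.33 in sh74 cells and 7.52, 8.51 and 8.07 in sh75 cells, against 10.44, 10.33 and 10.20 in shScramble cells. Neither hairpin group overlapped shScramble. The change was -1.31 ± 0.29 on the log2 scale for sh74 (SE; limma adjusted p = 0.279) and -2.29 ± 0.26 for sh75 (adjusted p = 0.00911), so that the gene was called with sh75 and not with sh74. In CNOT7 over-expression cells it measured 10.64, 10.02 and 10.08, against 10.07, 10.52 and 10.15 in vector control cells. The probe set is annotated to the mouse gene and the construct is human, so it does not check the over-expression label.

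A change was called where the adjusted p was under 0.05 in a limma model of all 14 samples, over 21789 probe sets. With CNOT7 over-expression 0% of these were called (562 had an unadjusted p under 0.05) and in 7.72% the samples of the compared groups did not overlap. With sh74 0.00918% were called (2) and 22% did not overlap. With sh75 0.0918% were called (20, of which 15 lower) and 13.5% did not overlap. Vector control against shScramble gave 0% called (807 with an unadjusted p under 0.05) and 9.74% not overlapping. Changes were below 0 in 46.1% of probe sets with CNOT7 over-expression, 48.7% with sh74, 50.2% with sh75 and 52.3% between the controls.

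Among the 9 Hippo genes, 0 were called with CNOT7 over-expression, with 8 changes above 0 and 1 below, a median change of 0.11 beside 0.01 over all probe sets, and 1 gene whose groups did not overlap. With sh74, 0 were called, 8 changes were above 0 and 1 below, the median was 0.17 beside 0.00, and 3 genes did not overlap. With sh75, 6 changes were above 0 and 3 below, the median was 0.11, and Mob1b and Sav1 did not overlap. Mob1b was among the 20 calls with sh75, the contrast by which it was chosen, so changes with sh75 are given below for all 9 genes as a description with no test. Vector control against shScramble gave 0 calls, 3 changes above 0 and 6 below, a median of -0.06 beside -0.00, and 1 gene not overlapping. The comparisons of sh74, sh75 and vector control all use the same 3 shScramble samples and are not independent of each other. The comparison with CNOT7 over-expression and that between the controls share the 3 vector control samples, which enter them with opposite sign. Low vector control values thus raise the first change and lower the second.

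**Figure D1:**
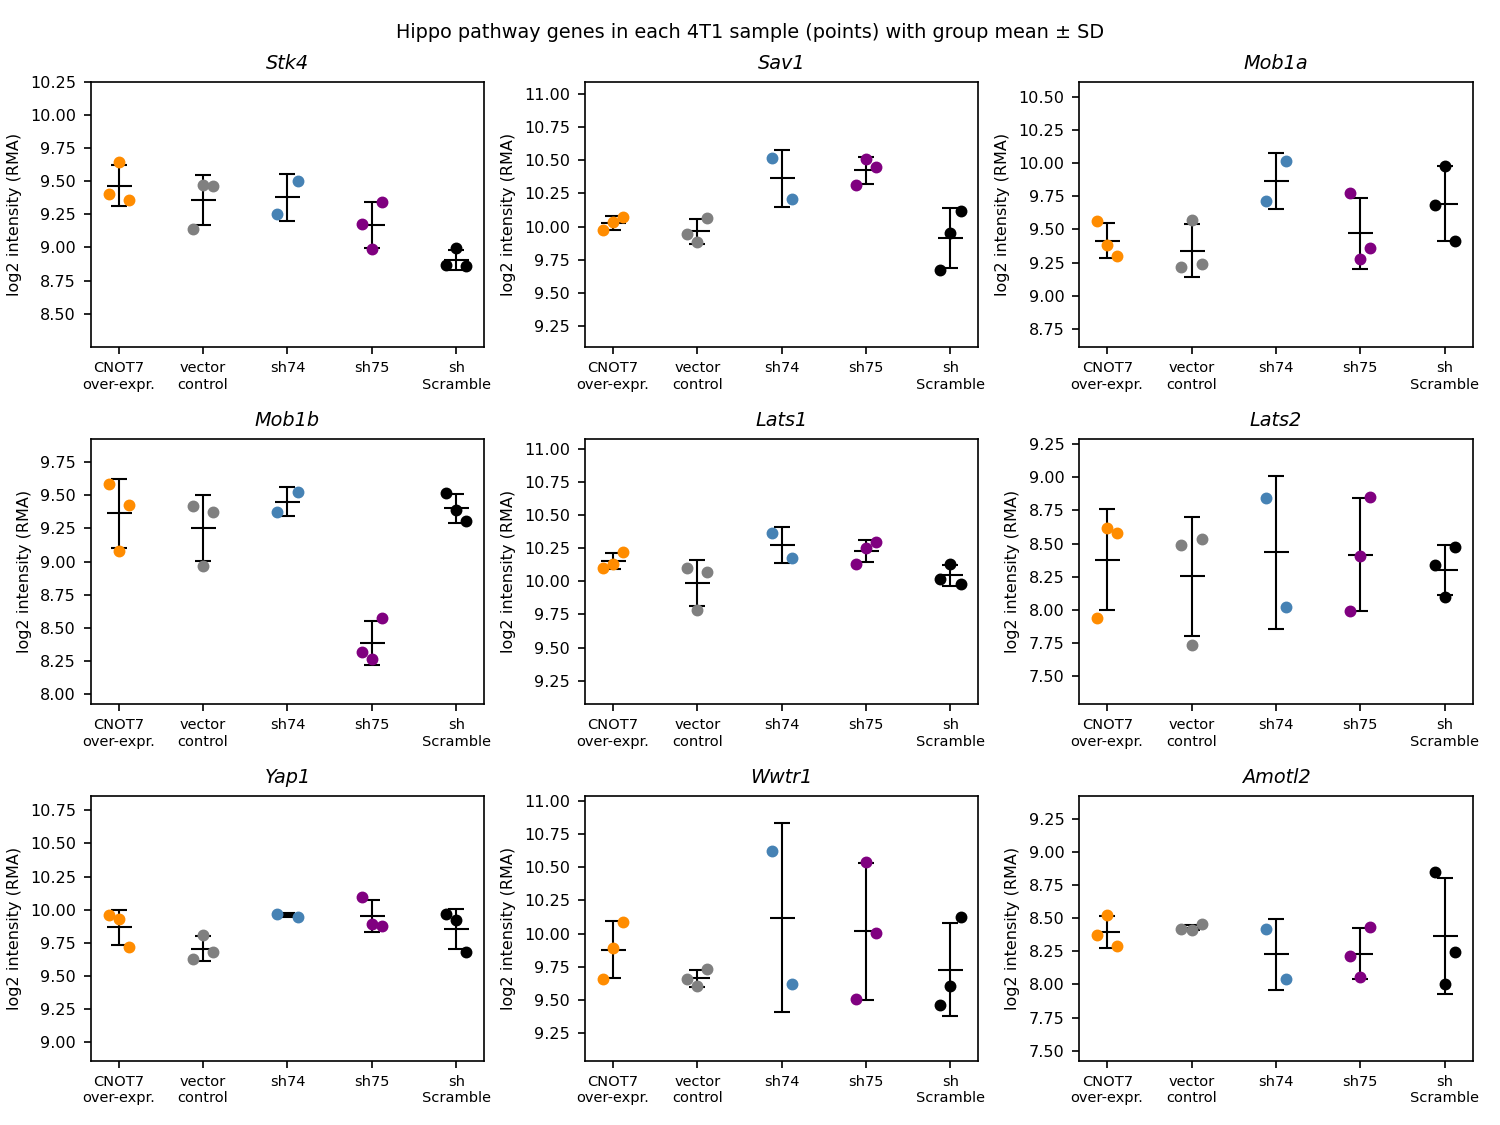
RMA log2 intensity (y axis) of the 9 measured Hippo genes in each of 14 samples (points) by group (x axis), with the group mean and SD in black. Every panel spans the same number of log2 units; the 3 sh75 samples of Mob1b lie between 8.27 and 8.57, below the 11 others.

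Mob1a and Mob1b are closely related adaptors that bind and activate the Lats kinases. Mob1b measured 9.37 and 9.53 in sh74 cells and 8.32, 8.27 and 8.57 in sh75 cells, against 9.52, 9.39 and 9.30 in shScramble cells. It measured 9.59, 9.08 and 9.43 in CNOT7 over-expression cells, against 9.42, 8.97 and 9.38 in vector control cells. The 3 sh75 samples were the lowest of all, and the other groups overlapped one another. The group means were ordered sh75 (8.39 ± 0.16, SD), vector control (9.25 ± 0.25), CNOT7 over-expression (9.36 ± 0.26), shScramble (9.40 ± 0.11) and sh74 (9.45 ± 0.11). From vector control upward, each neighbour in that order differed from the next by less than the SD of either group.

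With sh75 the Mob1b change was -1.02 ± 0.15 (SE), which is 49.4% of the shScramble level. In bulk RNA, fewer cells expressing a gene and less RNA per cell cannot be told apart. With sh74 the change was 0.05 ± 0.17 with a 95% interval from -0.32 to 0.41 (limma adjusted p = 0.976). With CNOT7 over-expression it was 0.11 ± 0.15, from -0.22 to 0.44 (adjusted p = 1.0). Of the 3 samples with the lowest Cnot7 among sh75 and sh74 cells, all carried sh75, so that the hairpin and the depth of the knockdown cannot be told apart.

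Mob1a measured 9.72 and 10.02 in sh74 cells and 9.78, 9.28 and 9.36 in sh75 cells, against 9.69, 9.98 and 9.42 in shScramble cells. It measured 9.56, 9.39 and 9.30 in CNOT7 over-expression cells, against 9.21, 9.57 and 9.24 in vector control cells. The groups overlapped in each of these comparisons. Its change was 0.17 ± 0.19 with sh74 (adjusted p = 0.905), -0.22 with sh75 and 0.08 ± 0.17 with CNOT7 over-expression (adjusted p = 1.0). Thus the paralog did not share the low values of Mob1b in every sh75 sample: sh75 replicate 1, with Mob1b at 8.32, had Mob1a at 9.78. The other sh75 replicates, at 9.28 and 9.36, lay below every shScramble sample but within the range of vector control cells. Without sh75 replicate 1 the Mob1a change was -0.37.

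**Figure D2:**
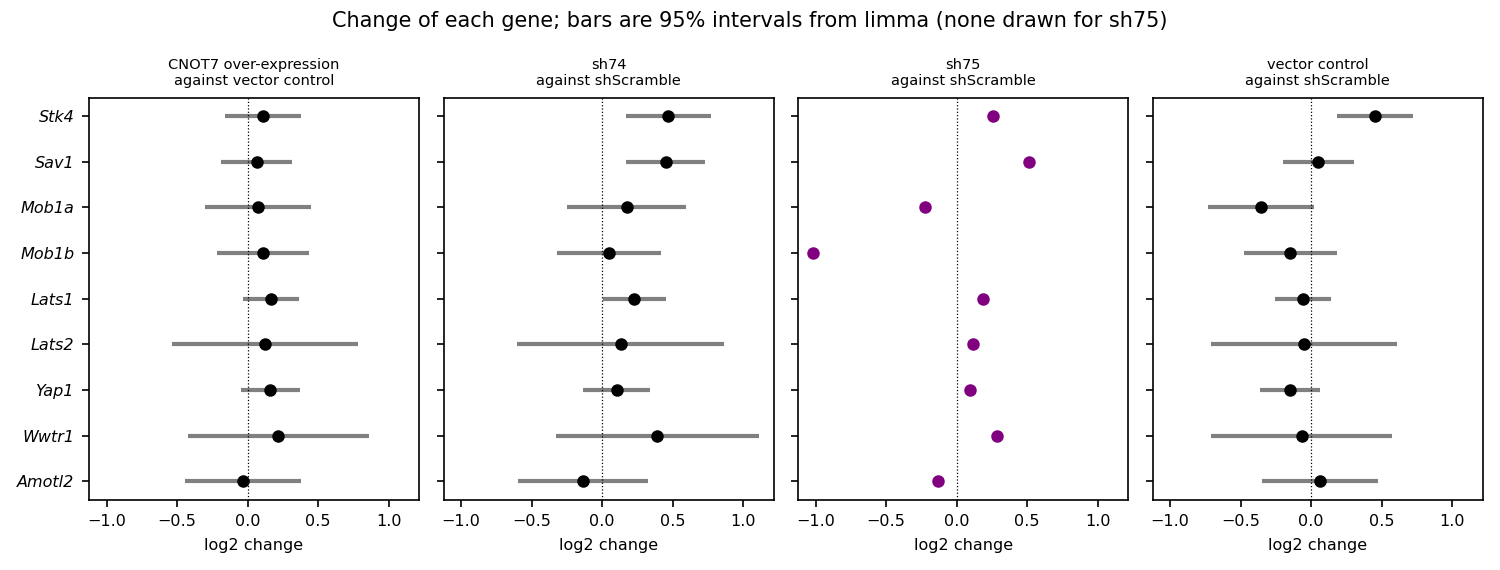
Log2 change (x axis) of each measured Hippo gene (rows) in 4 comparisons (panels); points are limma estimates and bars 95% intervals, left out for sh75, whose contrast chose the set. Mob1b stands at -1.02 with sh75 and near 0 with sh74 (0.05), and the sh74 intervals of Stk4, Sav1 and Lats1 lie above 0.

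Stk4 is the upstream kinase of the cascade, and Sav1 the scaffold that joins it to the Lats kinases. Stk4 measured 9.25 and 9.50 in sh74 cells and 9.18, 8.99 and 9.34 in sh75 cells, against 8.87, 8.99 and 8.86 in shScramble cells. It measured 9.40, 9.64 and 9.35 in CNOT7 over-expression cells, against 9.14, 9.47 and 9.46 in vector control cells. The shScramble samples were, with sh75 replicate 2, the lowest of all 14. Both sh74 and vector control samples lay above them without overlap (22% and 9.74% of all probe sets did not overlap). The change was 0.47 ± 0.14 with sh74, with a 95% interval from 0.17 to 0.77 (unadjusted p = 0.00538, limma adjusted p = 0.472). Vector control cells, which carry no hairpin, differed from shScramble by 0.45 ± 0.12 (unadjusted p = 0.00351, adjusted p = 1.0). Neither was called, and both rest on the same shScramble samples. With sh75 the change was 0.26, and with CNOT7 over-expression 0.11 ± 0.12.

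Sav1 measured 10.52 and 10.21 in sh74 cells and 10.31, 10.51 and 10.45 in sh75 cells, against 9.67, 9.95 and 10.12 in shScramble cells. All 5 hairpin samples lay above the 3 shScramble samples. Over all probe sets, 22% did not overlap shScramble with sh74 and 13.5% with sh75, the contrast that chose the set. The hairpin samples of Sav1 also lay above the range of CNOT7 over-expression cells (9.97, 10.03 and 10.07) and of vector control cells (9.94, 9.88 and 10.06). The change was 0.45 ± 0.13 with sh74, with an interval from 0.17 to 0.73 (unadjusted p = 0.00477, adjusted p = 0.462), so it was not called. With sh75 it was 0.51 ± 0.11, or 142% of shScramble. With CNOT7 over-expression it was 0.06 ± 0.11 (adjusted p = 1.0), and vector control differed from shScramble by 0.05.

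Lats1 and Lats2 are the kinases that phosphorylate YAP and TAZ. Lats1 replicates were tight, with an SD within groups of 0.11. It measured 10.37 and 10.18 in sh74 cells and 10.13, 10.25 and 10.30 in sh75 cells, against 10.02, 10.13 and 9.98 in shScramble cells. It measured 10.10, 10.13 and 10.22 in CNOT7 over-expression cells, against 10.10, 9.78 and 10.07 in vector control cells. The CNOT7 over-expression samples lay just above the vector control samples without overlap (7.72% of all probe sets did not overlap), as did sh74 above shScramble (22%). The change was 0.17 ± 0.09 with CNOT7 over-expression (adjusted p = 1.0), 0.23 ± 0.10 with sh74 (adjusted p = 0.674) and 0.18 with sh75. None was called, and all 3 changes were above 0.

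Lats2 was far more variable between replicates. It measured 8.84 and 8.03 in sh74 cells and 8.00, 8.41 and 8.85 in sh75 cells, against 8.34, 8.10 and 8.47 in shScramble cells. It measured 7.94, 8.61 and 8.58 in CNOT7 over-expression cells, against 8.49, 7.74 and 8.53 in vector control cells. Every group thus held both low and high samples, and its changes were 0.12 ± 0.30 with CNOT7 over-expression, 0.13 ± 0.33 with sh74 and 0.11 with sh75. Differences between groups made up 4.21% of the variance of Lats2, the smallest share of the 9 genes. For Lats1 that share was 57.8%, for Stk4 72.3% and for Sav1 76.4%. Over all probe sets tested its median was 32.0% and its 95th percentile 67.5%, so Lats1 lay below that percentile. For Mob1b it was 86.9%, which the choice of the set by its sh75 values made large.

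Yap1 and Wwtr1 are the co-activators on which the kinases converge. Yap1 spanned only 0.46 log2 units over the 14 samples. It measured 9.97 and 9.95 in sh74 cells and 10.09, 9.89 and 9.88 in sh75 cells, against 9.97, 9.92 and 9.68 in shScramble cells. It measured 9.96, 9.93 and 9.72 in CNOT7 over-expression cells, against 9.63, 9.81 and 9.68 in vector control cells. The groups overlapped, and the change was 0.16 ± 0.10 with CNOT7 over-expression (adjusted p = 1.0), 0.10 ± 0.11 with sh74 (adjusted p = 0.897) and 0.10 with sh75.

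Wwtr1 differed between replicates more than between groups. It measured 10.62 and 9.62 in sh74 cells and 9.51, 10.54 and 10.00 in sh75 cells, against 9.46, 9.60 and 10.12 in shScramble cells. It measured 9.66, 9.89 and 10.09 in CNOT7 over-expression cells, against 9.65, 9.60 and 9.73 in vector control cells. Its change was 0.39 ± 0.33 with sh74 (adjusted p = 0.872), 0.22 ± 0.29 with CNOT7 over-expression (adjusted p = 1.0) and 0.29 with sh75. Its SD within groups, 0.39, was above that of 92.9% of the 2000 probe sets nearest to it in mean level.

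The replicates of Wwtr1 were set beside Esrp1, a splicing regulator specific to epithelial cells, which was picked from the 15 epithelial markers after its values were seen. Esrp1 measured 11.01, 9.73 and 5.42 in the CNOT7 over-expression replicates in order, 5.65 and 10.65 in the sh74 replicates, 10.79, 6.50 and 6.49 in the sh75 replicates, 10.08, 10.58 and 10.01 in the vector control replicates, and 10.76, 10.56 and 5.21 in the shScramble replicates. In 4 of 5 groups the replicates stood in the opposite order for Wwtr1 and for Esrp1. In sh75 cells the replicate with the highest Esrp1 had the lowest Wwtr1, and the other two had nearly equal Esrp1. Not every epithelial marker did the same: 8 of 15 stood in the opposite order to Wwtr1 in at least 4 groups, and 2, the keratins Krt8 and Krt18, in only 1. In the CNOT7 over-expression replicates Krt8 measured 11.13, 11.73 and 11.80, in the same order as Wwtr1. The mean of the 15 epithelial markers was 8.41 in sh74 replicate 1, where Wwtr1 was 10.62, and 10.49 in sh74 replicate 2, where Wwtr1 was 9.62. In sh75 cells, whose title numbers were 4, 5 and 5, that mean was 10.35, 8.76 and 8.93 beside Wwtr1 at 9.51, 10.54 and 10.00. With that mean added to the model as a covariate, an alternative chosen after seeing the data, the Wwtr1 change was 0.23 ± 0.15 with sh74 (limma adjusted p = 0.750), 0.14 ± 0.13 with CNOT7 over-expression (adjusted p = 1.0) and 0.09 with sh75. For Sav1 the same model gave 0.40 ± 0.09 with sh74 (adjusted p = 0.202) and 0.44 with sh75. Mob1b had no such pattern in sh75 cells: it was 8.32 where the epithelial mean was 10.35, and 8.27 and 8.57 where it was 8.76 and 8.93.

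**Figure D3:**
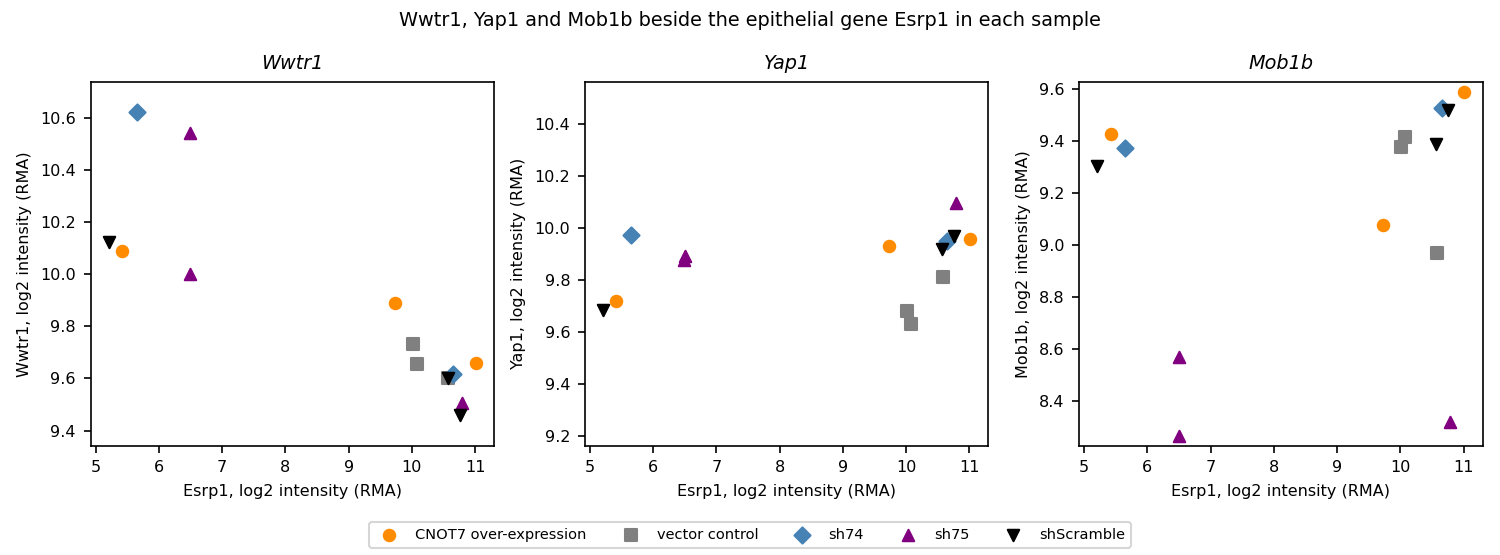
RMA log2 intensity of Wwtr1, Yap1 and Mob1b (y axes) beside that of Esrp1 (x axes) in each of 14 samples, with colour and symbol giving the group. In 4 of 5 groups the replicates stand in the opposite order for Wwtr1 and Esrp1 (10.62 and 9.62 in the sh74 samples at Esrp1 of 5.65 and 10.65), and the 3 sh75 samples are low in Mob1b at either Esrp1 level.

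Amotl2 is an angiomotin that binds YAP and TAZ and holds them outside the nucleus, and its gene is itself a known YAP target. It measured 8.42 and 8.04 in sh74 cells and 8.21, 8.05 and 8.43 in sh75 cells, against 8.85, 8.00 and 8.24 in shScramble cells. It measured 8.37, 8.52 and 8.29 in CNOT7 over-expression cells, against 8.42, 8.41 and 8.45 in vector control cells. One shScramble sample was the highest of all and another the lowest. The change was -0.03 ± 0.19 with CNOT7 over-expression, -0.14 ± 0.21 with sh74 (adjusted p = 0.939) and -0.13 with sh75, and groups overlapped in each case.

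The wider pathway was read from lists of 71 other Hippo genes, of which 67 were measured. With CNOT7 over-expression 0 of 67 were called in either direction, with 48 changes above 0 and 19 below and 6 genes not overlapping (8.96%, beside 7.72% of all probe sets). With sh74 0 of 67 were called, with 39 above and 28 below and 14 not overlapping (20.9%, beside 22%). With sh75 0 of 67 were called, with 38 above and 29 below and 16 not overlapping (23.9%, beside 13.5%). For vector control against shScramble 0 of 67 were called, with 24 above and 43 below and 9 not overlapping (13.4%, beside 9.74%). Unadjusted limma p-values were under 0.05 for 3 genes with CNOT7 over-expression, 4 with sh74, 13 with sh75 and 3 between the controls. Over all 21789 probe sets these counts were 562, 1598, 1800 and 807, and changes were below 0 in 46.1%, 48.7%, 50.2% and 52.3%. Of the 67 genes, 65 had a mean above the background limit, whereas all probe sets include dim ones, so these shares compare unlike sets. The lists were chosen with earlier results of these data known, so the sh75 count is a description and no test.

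Upstream of the core kinases, 19 genes had a median change of 0.07 with CNOT7 over-expression, 0.01 with sh74 and -0.04 with sh75. Taok1, a kinase that activates the MST kinases, had the smallest p of this list in the CNOT7 over-expression comparison. It measured 10.19, 10.27 and 10.38 in CNOT7 over-expression cells, against 10.07, 10.10 and 10.09 in vector control cells. Those samples did not overlap, and the change was 0.19 ± 0.07 (limma adjusted p = 1.0). With sh74 it measured 10.55 and 10.31, against 10.18, 10.30 and 10.30 in shScramble cells, a change of 0.17 ± 0.08 (adjusted p = 0.701). The FERM-domain gene Frmd6 differed by 0.25 ± 0.11 with CNOT7 over-expression (adjusted p = 1.0). Nf2, the tumor suppressor merlin that brings Lats kinases to the membrane, differed by -0.21 ± 0.11 with sh74 (adjusted p = 0.746). Between the controls the smallest p-values were those of the protocadherin Fat4 (-0.25) and Taok1 (-0.17). Fat4 lay near the background limit, at 4.79 to 4.96 in vector control cells and 5.07 to 5.23 in shScramble cells.

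The 16 genes of the STRIPAK phosphatase complex, which opposes the MST kinases, of the NDR kinases and of the other Mob proteins had median changes of 0.04 with CNOT7 over-expression, 0.07 with sh74 and 0.09 with sh75. Mob2, a partner of NDR kinases, differed by -0.19 ± 0.08 with sh74 (adjusted p = 0.671), and Strn4, a striatin of STRIPAK, by -0.15 ± 0.07 (adjusted p = 0.674). With CNOT7 over-expression the NDR kinase Stk38l differed by 0.19 ± 0.10 and the STRIPAK gene Strip2, which was below the background limit, by -0.11 ± 0.07 (adjusted p = 1.0 for both). Stk38l also had the smallest p of this list between the controls (-0.20), followed by Strn (-0.16). Of the 5 other Mob genes, Mob2 (-0.03), Mob3b (0.01) and Mob3c (0.10) had small changes with sh75 and overlapped shScramble, and Mob4 and Mob3a did not overlap. Mob4, a STRIPAK subunit, measured 9.42, 9.53 and 9.25 in sh75 cells, against 9.83, 9.88 and 9.83 in shScramble cells, a change of -0.45. Mob3a, which lacks a settled role in the cascade, measured 9.02, 9.12 and 9.18 in sh75 cells, against 8.69, 8.53 and 8.79 in shScramble cells, a change of 0.44. Mob4 and Mob3a were picked out after their values were seen, neither was called, and with sh74 the changes were 0.13 and 0.30.

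Of YAP and TAZ partners and inhibitors, 14 genes had median changes of 0.06 with CNOT7 over-expression, 0.07 with sh74 and 0.21 with sh75. Ajuba, a LIM protein that binds and inhibits Lats kinases, measured 8.72 and 9.27 in sh74 cells, against 9.99, 9.77 and 9.45 in shScramble cells. Its samples did not overlap, and the change was -0.74 ± 0.24 (unadjusted p = 0.00938, adjusted p = 0.507). In sh75 cells Ajuba measured 9.63, 8.99 and 9.50, overlapping shScramble. Ctnna1, the alpha-catenin of adherens junctions, differed by 0.29 ± 0.22 with sh74 (adjusted p = 0.855). With CNOT7 over-expression, Ptpn14, a phosphatase that binds YAP, differed by 0.32 ± 0.14 and the DNA-binding partner Tead1 by 0.26 ± 0.12 (adjusted p = 1.0 for both). Between the controls Tead4 and Tead1 differed by -0.36 and -0.23.

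YAP and TAZ target genes read the output of the pathway. Over 18 of them the median change was 0.01 with CNOT7 over-expression, 0.00 with sh74 and -0.08 with sh75, beside medians near 0 over all probe sets. These targets are known mainly from human cells, and 17 of the 18 had a mean above the background limit. Foxf2 lay below it, and Rbms3 (4.81 to 5.05) and Fjx1 (4.85 to 5.39) lay near it, where a change would be hard to see. Myof, a membrane repair protein, measured 11.77 and 11.23 in sh74 cells, against 11.08, 11.16 and 11.07 in shScramble cells, a change of 0.40 ± 0.13 (adjusted p = 0.539). F3, tissue factor, differed by -0.66 ± 0.33 with sh74 (adjusted p = 0.715). With CNOT7 over-expression the smallest p-values were those of Tgfb2 (0.33 ± 0.25) and Crim1 (0.38 ± 0.30), both with an adjusted p of 1.0. Between the controls Dock5 and Nt5e differed by -0.24 and 0.37.

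The classical targets Ccn1 and Ccn2, matricellular proteins also known as CYR61 and CTGF, spread widely. Ccn1 measured 10.60 and 9.88 in sh74 cells and 9.27, 10.19 and 11.21 in sh75 cells, against 11.55, 10.46 and 10.35 in shScramble cells. Ccn2 measured 9.04 and 9.16 in sh74 cells and 9.36, 9.00 and 9.79 in sh75 cells, against 10.34, 9.42 and 9.14 in shScramble cells. Both overlapped, with changes in Ccn1 of -0.55 with sh74 and -0.56 with sh75, and in Ccn2 of -0.53 and -0.25. With sh75 the targets lay on both sides of 0. Tgfb2, a TGF-beta ligand, measured 6.05, 6.97 and 6.37 in sh75 cells, against 5.69, 5.39 and 5.35 in shScramble cells. Ankrd1, a cardiac ankyrin repeat protein much used as a YAP readout, measured 11.26, 10.95 and 11.52 in sh75 cells, against 11.76, 11.73 and 11.58 in shScramble cells. Neither gene overlapped between these groups, with changes of 0.99 for Tgfb2 and -0.45 for Ankrd1. Ccn1, Ccn2 and Ankrd1, and Tgfb2 for its values with sh75, were picked out after their values were seen.

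**Figure D4:**
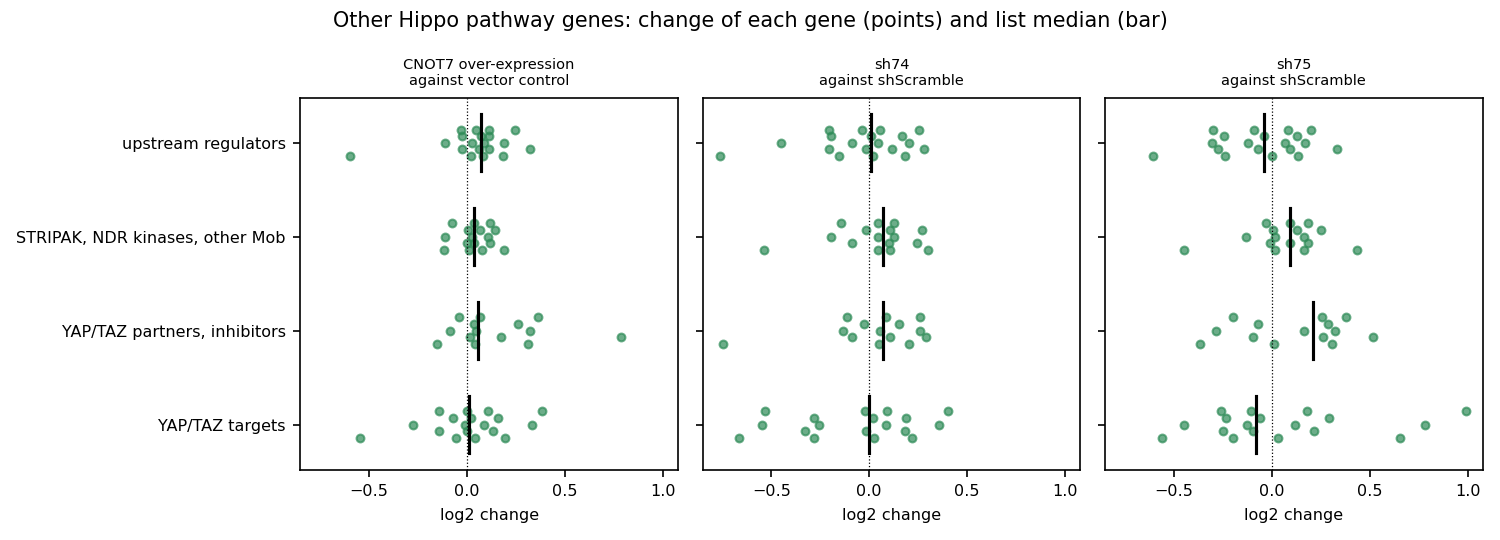
Log2 change (x axis) of 67 other Hippo pathway genes (points) in 4 lists by role (rows) for 3 comparisons (panels), with the list median as a bar. The medians lie between -0.08 and 0.21, none of the 67 genes was called, and the YAP and TAZ targets with sh75 reach 0.99 for Tgfb2 and -0.56 for Ccn1.

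Likeness to Mob1b was ranked by Pearson's r among 14999 probe sets above the background limit. Olfactory receptors, predicted genes, unnamed clones and small RNAs had been left out by name. The genes whose pattern over the 14 samples was most like that of Mob1b were Lnpk (0.969), Eogt (0.947) and Emc6 (0.934). These are an endoplasmic reticulum junction protein, an O-GlcNAc transferase of the endoplasmic reticulum and a subunit of the membrane insertion complex EMC. Likeness to Mob1b selected them for low values with sh75, where the changes were -0.78 for Lnpk, -0.93 for Eogt and -0.84 for Emc6, beside changes with sh74 of -0.04, 0.33 and -0.04. After each group's mean was subtracted, the most similar genes were others: Tmem33 (0.981), Zfp53 (0.960) and Pom121 (0.954). Of the pathway's own genes, Mob1b stood furthest from 0 with Sav1 (r = -0.59), and r fell short of that with the rest, from -0.30 for Yap1 to 0.25 for Amotl2. These coefficients describe 14 samples that share 5 group means, and r with the gene targeted, Cnot7, was 0.76. With group means subtracted, r was -0.20 for Sav1 and 0.14 for Cnot7, and the member furthest from 0 was Lats1 (0.45, against -0.17 as deposited).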

How the data were processed

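The authors hybridized the RNA to Affymetrix Mouse Gene 1.0 ST arrays, summarized them with RMA through oligo in R (versions not given in the sources used here) and deposited log2 values for 35556 probe sets. RMA corrects background, equalizes array distributions and summarizes probes, so small changes of dim or variable probes may be understated. The values were used as deposited. Names came from the array annotation: 21789 probe sets paired with 1 symbol and were tested, 1621 with several and 12146 with none were not. Comparisons were contrasts in 1 limma model of 5 groups (limma 3.58.1, R 4.3.3, 9 residual and 2.09 prior degrees of freedom), two-sided, with Benjamini-Hochberg adjustment over all 21789. The number of arrays limits the precision. The scripts were tested on simulated data.

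The members and lists were chosen with earlier results of these data known. Named were the members, Cnot7, per role list and comparison any called gene and the 2 with the smallest p, and the 3 probe sets most like Mob1b, as deposited and after subtracting group means. Alternatives covered array scaling, dim and multi-symbol probe sets, the variance model, array weights, the samples fitted, left-out samples, a replicate block and the methods' t-test. Adding the epithelial marker mean as a covariate was chosen after seeing the data. Promoters came from RefSeq, GRCm38.p6, and hairpins from the study's primer list.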

Additional observations from a re-analysis of the deposited data

How the results depend on the processing

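Mob1b with sh75 was between -1.11 and -0.94 under every alternative run, and Sav1 between 0.36 and 0.61. Changes of the 9 Hippo genes, all uncalled, turned sign in 4 of 144 values under alternatives with CNOT7 over-expression, 7 of 135 with sh74 and 9 of 144 between the controls, and otherwise kept direction and side of the threshold. The count of calls with sh74, 2, became 0 with only the compared groups, 1 with a trended robust prior, 1 with array weights, 0 with the methods' t-test, 10 with the epithelial covariate (chosen after seeing the data) and 1 to 122 when samples were left out, the 122 without sh74 replicate 2. With sh75, 20 became 3 with only the compared groups, 35 with array weights, 0 with the methods' t-test and 6 to 22 when samples were left out. With CNOT7 over-expression, 0 became 0 to 1, the 1 without vector control replicate 3. Between the controls, 0 became 1 with array weights. The counts of 0 with the t-test are at an adjusted p under 0.05. At an unadjusted p under 0.01, the t-test gave 70 probe sets with CNOT7 over-expression and 97 between the controls. At that cut it gave 151 with sh74 and 177 with sh75, each out of 21789. The causes were not tested.

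The number in the sample titles as a fixed replicate block could be fitted only for sh75, where it gave 2 calls and a Mob1b change of -0.94. As a random block it gave 0, 2, 23 and 0 calls for CNOT7 over-expression, sh74, sh75 and the controls. Samples of equal number had a median correlation of 0.09 (-0.30 to 0.59 over 13 pairs between groups), beside -0.10 over 65 pairs of other number. Some pairs were below 0, so the number was not taken to pair samples. The epithelial mean did follow it in part, at 10.31 to 10.35 with number 4 and 8.76 to 9.43 with number 5. Wwtr1 was 9.51 to 9.66 with number 4 and 9.89 to 10.54 with number 5. In vector control and sh74 cells the epithelial mean was 9.46 and 8.41 with number 1, and 9.31 and 10.49 with number 7. The reason was not tested.

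When samples were left out, changes with CNOT7 over-expression ran from -0.032 to 0.25 for Mob1b, -0.13 to 0.34 for Lats2 and -0.096 to 0.019 for Amotl2. With sh74 they ran from -0.030 to 0.12 for Mob1b, -0.28 to 0.54 for Lats2, -0.11 to 0.90 for Wwtr1 (without sh74 replicate 1 and 2) and -0.33 to 0.11 for Amotl2. Except for the 0.11 of Amotl2, these sh74 extremes come from fits that leave 1 sh74 sample. Between the controls they ran from -0.12 to 0.042 for Lats1, -0.19 to 0.21 for Lats2, -0.073 to 0.15 for Sav1, -0.20 to 0.13 for Wwtr1 and -0.12 to 0.31 for Amotl2. With sh75, given with no test, Lats2 ran from -0.10 to 0.32 and Amotl2 from -0.31 to 0.11. Lats2 was -0.021 with sh74 under the epithelial covariate, and between the controls array weights gave 0.14 for Lats2 and 0.0037 for Wwtr1. Rescaling the arrays moved the median of all probe sets to at most -0.03. Each member had 1 probe set, so averaging probe sets gave no other value.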
